A study of Macaca mulatta with 12 samples.

Results

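M-MBC 2 is 1 of the 2 groups of B cells that the authors' annotation names M-MBC, and it is described here as an IgM memory subtype of rhesus macaque blood. Its members are the cells whose deposited annotation is M-MBC 2, and no measured value was used again to choose them. There were 929 such cells among 13849 in the count table and among 13324 annotated as B cells. The clustering behind the annotation was made by the authors from the same expression values, so differences in expression between M-MBC 2 and other subtypes are given as description, without a test.

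IgM memory B cells have met antigen but still carry the IgM heavy chain, and in primates they circulate in blood beside marginal-zone-like B cells of related phenotype. Somatic hypermutation changes the bases of the heavy-chain variable (IGHV) segment in B cells that have responded, and class switching replaces the IgM and IgD constant region with IgG, IgA or IgE. TYROBP (DAP12) is an adaptor that carries an immunoreceptor tyrosine-based activation motif (ITAM) and pairs with receptors better known from natural killer and myeloid cells, and MAST4 is a microtubule-associated serine/threonine kinase.

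Blood mononuclear cells came from 6 juvenile rhesus macaques of 2 to 3 years, which were of Indian origin, healthy and unmanipulated, and each animal gave a 5' expression library and a B cell receptor library. The 2 males (male 1 and male 2) formed batch 1 and the 4 females (female 1 to female 4) formed batch 2, so sex and batch cannot be told apart. No animal was treated and no group differs by genotype or time. The comparisons below are between cell subtypes of the same animals, or between cells within M-MBC 2.

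M-MBC 2 made up 4.18% of the annotated B cells in male 1 (116 cells; exact Clopper-Pearson 95% interval 3.47 to 4.996), 12.1% in male 2 (323 cells; 10.8 to 13.4) and 10.6% in female 1 (282 cells; 9.44 to 11.8). In female 2 it was 4.76% (76 cells; 3.77 to 5.92), in female 3 3.35% (102 cells; 2.74 to 4.05) and in female 4 5.33% (30 cells; 3.62 to 7.52). The intervals cover counting error only. Male 2 and female 1 stood above the other animals, and the mean was 6.71% ± 3.66 (SD, n = 6), with 8.12% ± 5.57 (SD, n = 2) in the males and 6.00% ± 3.16 (SD, n = 4) in the females. The summed named genes of M-MBC 2 held 201737 UMIs (unique molecular identifiers, counted molecules) in female 4 and between 549655 and 1794610 in the other animals, so values of female 4 rest on the fewest molecules. The median M-MBC 2 cell held 6782 UMIs ± 1282 (SD of the animals' medians, n = 6), against 4346 in M-MBC 1 and 4482 in Naive B cells 1. Exactly 1 heavy chain was found in 782 M-MBC 2 cells, none in 101 and 2 in 46 (4.95%), a share of 6.90% in male 1 and 8.98% in male 2 and at most 2.94% in a female, against 5.25% of Activated B cells, 3.21% of M-MZL BC, 2.15% of M-MBC 1 and 1.18% of Naive B cells 1. The contribution of such cells to the results was not tested gene by gene, and the descriptions were repeated on cells with exactly 1 heavy and 1 light chain. No M-MBC 2 cell shared its cell barcode with an M-MBC 2 cell of another animal, and 96 barcodes of the whole table occurred in more than 1 library.

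The receptors, which were read apart from the expression values, were mostly IgM and carried mutations. Memory genes were higher, but the annotation was made from the same expression values, so they are no test of the label. The 2 marker genes given with the label were high in M-MBC 2 without both being highest there. Levels are given as counts-per-million values (CPM) of the summed counts of an animal's cells of a subtype. MAST4 stood at 49.4 CPM in male 1, 44.8 in male 2, 39.9 in female 1, 66.7 in female 2, 38.1 in female 3 and 68.9 in female 4. It lay above M-MBC 1 (19.4 CPM ± 15.0, SD, n = 6), CD11c+ MBC 1 (12.9 ± 9.18) and Naive B cells 1 (1.35 ± 2.24) in 6 of 6 animals. MAST4 overlapped with M-MZL BC, at 56.0 CPM ± 17.3 (SD, n = 6), and with Activated B cells, at 68.9 ± 37.7, and M-MBC 2 had rank 3 in the order of the mean log2 levels over the 11 subtypes with sums from at least 4 animals. TYROBP stood at 458 CPM in male 1, 502 in male 2, 649 in female 1, 424 in female 2, 362 in female 3 and 678 in female 4. This was the highest level of the 11 subtypes, above Activated B cells (352 CPM ± 133, SD, n = 6), M-MZL BC (238 ± 70.3), M-MBC 1 (218 ± 66.1) and CD11c+ MBC 1 (181 ± 38.5) in every animal. TYROBP in Naive B cells 1 was 64.2 CPM ± 23.8 (SD, n = 6) and in C-MBC 1 79.7 ± 55.3. The authors' table also holds a predicted label per cell, which was B intermediate for 911 M-MBC 2 cells, B naive for 15 and B memory for 3, so this label and the annotation do not name the same class. CD27, a common memory marker, was not listed by name in the count table.

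**Figure D1:**
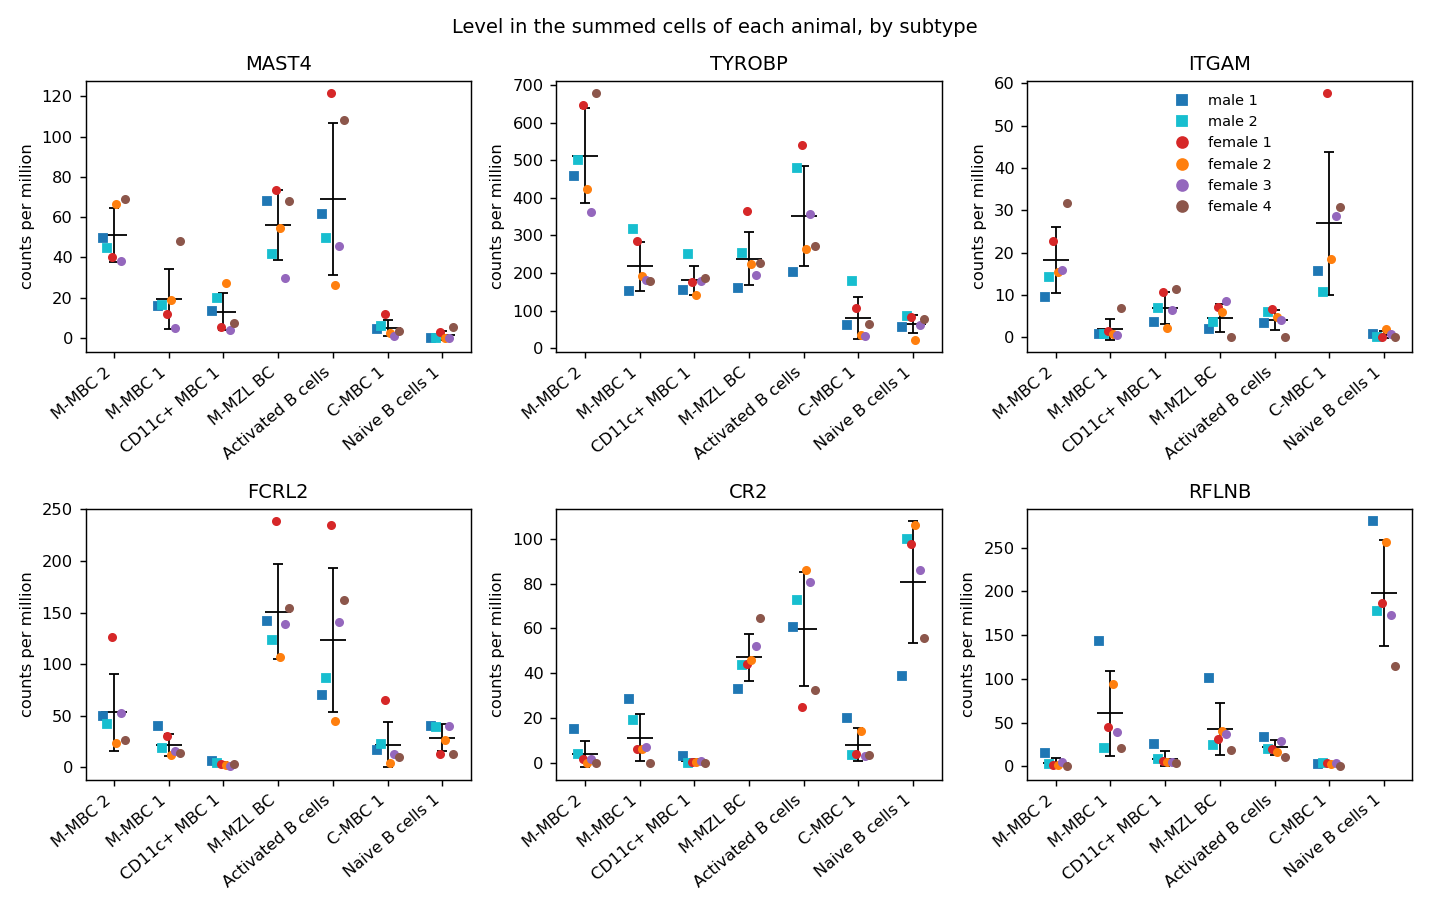
CPM (linear axis) of 6 genes in the summed cells of each animal (points; squares males, circles females) for M-MBC 2 and 6 other subtypes, with mean and SD. TYROBP is highest in M-MBC 2 in every animal, MAST4 and FCRL2 are as high or higher in M-MZL BC and Activated B cells, and CR2 and RFLNB are near 0 in M-MBC 2.

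Against the mean of all other B cell subtypes, the kinase gene MAST4, the adaptor gene TYROBP and the extracellular protein genes SULF2 and FBLN2 were among the highest genes of M-MBC 2, and the complement receptor gene CR2 and the IgE receptor gene FCER2 were among the lowest. Of 9410 genes, 237 (2.52%) were at least 1 higher on the log2 scale with all 6 animals in that direction, and 102 (1.08%) were at least 1 lower. The value given for each gene is the log2 difference of a fit over all subtypes, with the SD over the animals' own differences. The animals' own differences were taken with a small count added, which makes them smaller for genes with few counts. For such genes the SD is not a spread around the value of the fit. The highest differences were those of MAST4 (3.22 ± 0.39), the galanin receptor GALR2 (2.94 ± 0.81), the mitochondrial protein gene C15orf48 (2.91 ± 0.80), TYROBP (2.85 ± 0.46) and SULF2 (2.82 ± 0.57), an extracellular sulfatase acting on heparan sulfate. They were followed by MEGF11 (2.69 ± 0.29), the transcriptional co-regulator MN1 (2.68 ± 0.63), the Nogo receptor RTN4R (2.54 ± 0.38), the transcription factor TFEC (2.44 ± 0.25) and the matrix protein fibulin 2, FBLN2 (2.41 ± 0.48).

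The levels behind these differences varied between animals. SULF2 stood at 116 CPM in male 1, 43.5 in male 2, 34.4 in female 1, 46.1 in female 2, 30.2 in female 3 and 10.6 in female 4, so male 1 was high and female 4 low. TFEC, a member of the MiT family of transcription factors, was more even, at 41.8, 77.8, 52.2, 66.7, 41.3 and 26.5 CPM in the same order. FBLN2 lay between 28.3 and 64.7 CPM and was above each of M-MBC 1, M-MZL BC, Activated B cells and C-MBC 1 in 6 of 6 animals. It was above CD11c+ MBC 1, the subtype nearest to M-MBC 2 in mean log2 level, in 5 of 6 animals.

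At the low end, ST6GALNAC3, a sialyltransferase, differed by -2.72 ± 0.51 (log2), and it was listed at 0 in 3 of the 6 animals and at no more than 2.59 CPM in the others. GPR155, a lysosomal membrane protein gene, differed by -2.43 ± 0.36, PPFIA2 by -2.33 ± 0.66 and SPN, which encodes CD43, by -2.15 ± 0.79. CR2 encodes complement receptor 2 (CD21), and its difference was -1.94 ± 0.96. CR2 stood at 15.2 CPM in male 1, 3.89 in male 2, 1.66 in female 1, 1.59 in female 3 and 0 in female 2 and female 4. M-MZL BC held 47.1 CPM ± 10.6 (SD, n = 6) of CR2 and Naive B cells 1 80.7 ± 27.2, and neither overlapped with M-MBC 2. Low CR2 was not particular to M-MBC 2. The highest animal, male 1, held 2.83 CPM in CD11c+ MBC 1 and 1.49 in CD11c+ MBC 2, and M-MBC 1 and C-MBC 1 overlapped with M-MBC 2. RFLNB, an actin-organizing protein gene, differed by -1.91 ± 0.49, PDE3B, a phosphodiesterase, by -1.76 ± 0.39, and FCER2, the low-affinity IgE receptor CD23, by -1.61 ± 0.43. FCER2 stood at 32.3 CPM in male 1, 13.0 in male 2, 20.5 in female 1, 3.42 in female 2, 14.3 in female 3 and 10.6 in female 4, against 525 ± 189.8 (SD, n = 6) in Naive B cells 1. TRIB3 (-1.59 ± 0.43) and FNDC3B (-1.59 ± 1.32) completed the named genes, and FNDC3B was at 0 in female 4 and between 12.2 and 19.0 CPM in the other animals.

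With the antibody-secreting cells and the Naive B cells 2 and 3 subtypes left out of the mean, the higher genes numbered 77 and the lower ones 92, and on cells with exactly 1 heavy and 1 light chain the higher genes numbered 92. MAST4 was then 2.30 ± 0.49 and TYROBP 2.08 ± 0.43 higher than the mean of the remaining subtypes, still in 6 of 6 animals. Leaving out female 4 gave 182 lower genes.

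**Figure D2:**
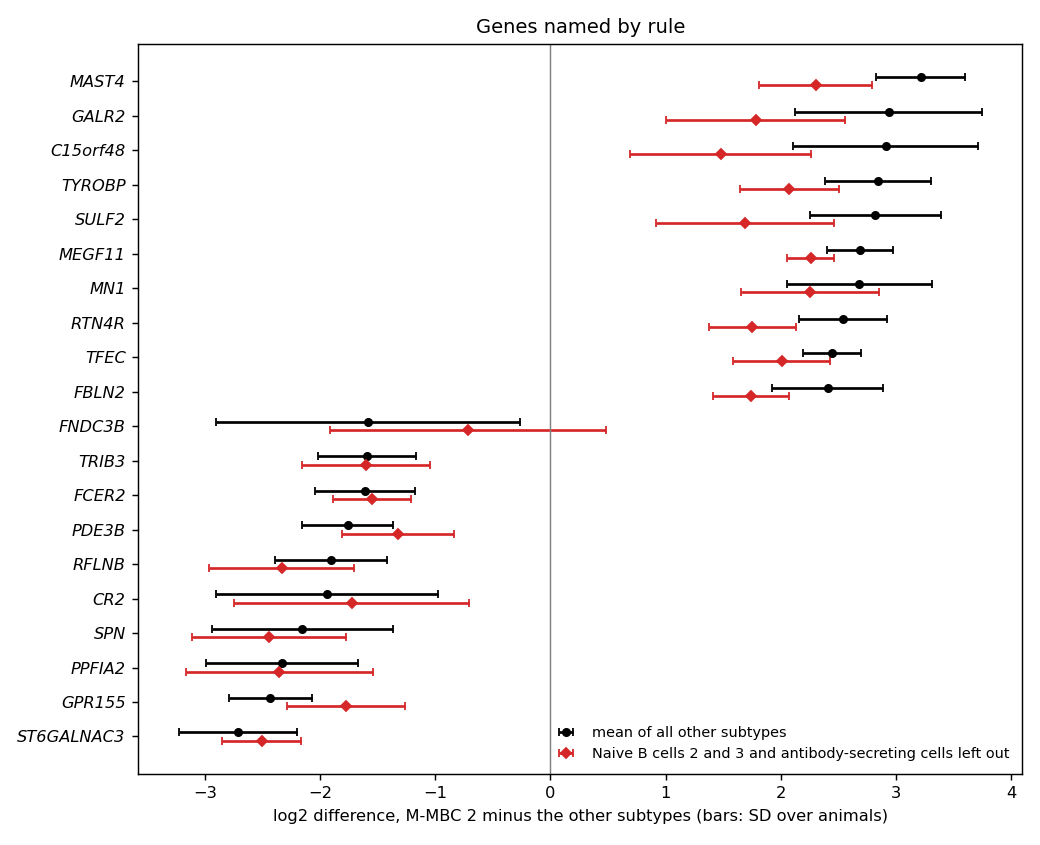
Log2 difference (x axis) between M-MBC 2 and the mean of the other subtypes for the 10 highest and 10 lowest genes, with the SD over animals as bars; black uses all other subtypes and red leaves out Naive B cells 2 and 3 and antibody-secreting cells. MAST4 goes from 3.22 to 2.30 and TYROBP from 2.85 to 2.08, and FNDC3B has the widest bar.

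Memory genes were higher and naive genes lower in M-MBC 2, in the same direction in all 6 animals for most of the first list. In all, 14.8% of the 9410 genes were higher in every animal than the mean over the other subtypes and 4.04% were lower, and the median difference over all genes was 0.09. Of 18 memory genes measured, 13 were higher in every animal and 0 lower, with a median of 1.02. The metastasis-associated calcium-binding S100A4 differed by 1.98 ± 0.42, ANXA4 of the annexins by 2.27 ± 0.41, TNFRSF13B (TACI, a receptor for BAFF and APRIL) by 1.72 ± 0.43 and the co-stimulatory ligand CD86 by 1.60 ± 0.39. CD86 stood at 392 CPM in male 1, 627 in male 2, 484 in female 1, 329.9 in female 2, 506 in female 3 and 392 in female 4. Each of these values was above every value of M-MBC 1, which held 146 CPM ± 44.1 (SD, n = 6) of CD86. Of 18 naive genes, 1 was higher in every animal (FOXP1, 0.49 ± 0.25) and 7 were lower, with a median of -0.69. Those 7 included FCER2, the interleukin 4 receptor IL4R (-1.38 ± 0.45), the transcriptional repressor BACH2 (-1.51 ± 0.57) and TCL1A (-1.44 ± 0.36), which was listed at 0 in 3 animals.

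Genes of atypical (CD11c+, T-bet+) memory cells and inhibitory receptors were also higher. Of 27 atypical genes, 19 were higher in every animal and 1 lower (GRK3, -0.76 ± 0.60), with a median of 0.76. The zinc finger factor ZBTB32 differed by 2.20 ± 0.35, the SRC-family kinase FGR by 2.07 ± 0.52, TBX21, which encodes T-bet, by 1.70 ± 0.44, and ITGAX, which encodes CD11c, by 1.41 ± 0.53. TBX21 was nevertheless a low-level gene, between 13.3 and 31.7 CPM in M-MBC 2. Of 22 inhibitory receptors and phosphatases, 13 were higher and 0 lower, with a median of 0.65: CD300A by 2.38 ± 0.51, SIGLEC10 by 1.76 ± 0.32, SIGLEC6 by 1.55 ± 0.41, FCRL3 by 1.53 ± 0.21 and CD200R1 by 1.46 ± 0.49 among them. SIGLEC10, a sialic-acid-binding receptor with inhibitory motifs, stood between 111 and 383 CPM in M-MBC 2, against 97.3 ± 38.6 (SD, n = 6) in M-MBC 1. The classical B cell co-receptor inhibitors CD22 (0.09 ± 0.24) and CD72 (-0.02 ± 0.39) were higher in 2 and 1 of the 6 animals, and BTLA (-0.79 ± 0.66) in 1. With Naive B cells 2 and 3 and antibody-secreting cells left out of the mean, CD22 was at -0.35 ± 0.36 and lower in 5 of 6 animals, and CD72 at -0.65 ± 0.29 and lower in 6 of 6.

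The list around TYROBP holds ITAM adaptors and receptors, and also the adaptor gene HCST and integrin chains. Of its 25 genes found in the count table, 8 passed the filter on low counts, and 5 were higher in every animal and 1 lower, with a median of 0.98. Beside TYROBP these were the integrin chain ITGAM (CD11b; 1.87 ± 0.67), HCST, the adaptor DAP10 (0.99 ± 0.35), the activating IgG receptor FCGR2A (0.97 ± 0.47) and the integrin beta chain ITGB2 (0.73 ± 0.42), and the lower gene was TREML1 (-0.47 ± 0.53), whose difference was 0.15 without female 3. FCER1G, the other common ITAM adaptor, did not pass. LILRA2, an activating leukocyte immunoglobulin-like receptor, differed by 1.12 ± 0.73 but was higher in only 3 of 6 animals. Among 27 signalling genes that act below ITAMs, 9 were higher in every animal and 0 lower, with a median of 0.10, close to that of all genes. FGR and the adaptor PIK3AP1 (0.70 ± 0.27) were among them, and SYK, the kinase that binds phosphorylated ITAMs, differed by 0.49 ± 0.23.

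**Figure D3:**
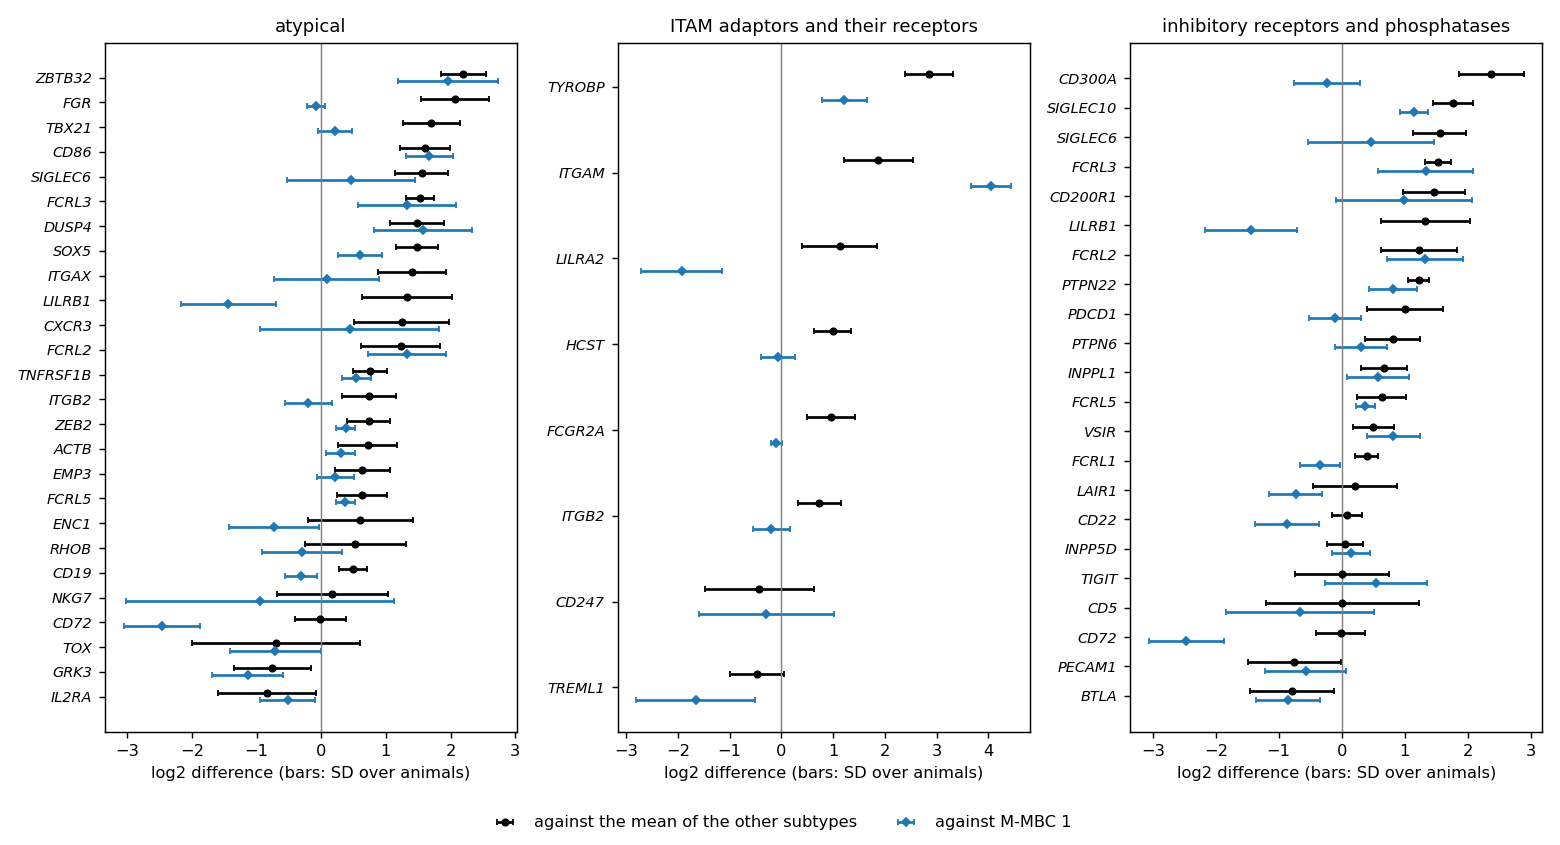
Log2 difference (x axis) of measured members of 3 gene lists in M-MBC 2 relative to the mean over other subtypes (black) and against M-MBC 1 (blue), with the SD over animals as bars. Most atypical and inhibitory genes lie above 0 against the mean, while LILRB1, CD72 and LILRA2 lie below 0 against M-MBC 1 and ITGAM reaches 4.05.

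The remaining lists moved less or in mixed directions. Of all genes, 14.8% were higher in every animal and 4.04% lower, so counts such as 4 of 23 or 3 of 16 higher are near that share. The IgM memory and marginal zone list had 5 of 18 genes higher and 1 lower (median 0.35), with CD1C (1.65 ± 0.23), which presents lipids, and the giant muscle protein gene TTN (2.01 ± 0.35) at the high end and CR2 at the low end. Against M-MBC 1 this list had 4 higher and 4 lower (-0.14), where 8.48% of all genes were higher and 8.3% lower. Against M-MZL BC it had 5 higher and 5 lower (-0.21), where 9.43% of all genes were higher and 10.4% lower. Homing and adhesion genes had 9 of 20 higher and 2 lower (median 0.23), with the follicle-homing receptor CXCR5 (1.61 ± 0.59), CXCR3 (1.25 ± 0.74) and GPR183 (1.15 ± 0.43) higher and CXCR4 (-0.67 ± 0.38) lower. Transcription factors of B cells had 11 of 41 higher and 2 lower (median 0.17), toll-like receptors and innate sensors 4 of 19 and 1 (0.63), TNF-family and NF-kB genes 4 of 23 and 3 (0.17), and the BCR signalling genes 5 of 18 and 1 (0.35). TLR9, the sensor of unmethylated CpG DNA, differed by 2.01 ± 0.26 and the CD27 ligand CD70 by 2.14 ± 0.45, both in 6 of 6 animals. MHC class II and presentation genes had 5 of 13 higher and 1 lower (0.56), survival genes of the BCL2 family 3 of 15 and 0 (0.40), with BCL2L11, the pro-apoptotic BIM, at 1.04 ± 0.17, and plasma-cell and secretory genes 2 of 13 and 1 (-0.09). B cell identity genes had 5 of 12 higher (0.40), led by MS4A1, which encodes CD20 (1.20 ± 0.46). The other microtubule-related genes beside MAST4 gave 3 of 16 higher, MAST4 included, and 1 lower (0.18). Immediate early and stress genes gave 2 of 19 higher (0.47), transitional genes 0 of 6 (0.06) and cell-cycle genes 0 of 12 (0.03), each with 0 lower.

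Some of these counts rested on the subtypes in the mean. Ribosomal protein genes had 10 of 17 higher (median 0.33) and oxidative phosphorylation genes 16 of 23 (0.38) against all other subtypes. With Naive B cells 2 and 3 and antibody-secreting cells left out, the counts became 0 higher and 13 lower of 17 (median -0.17), and 0 higher and 1 lower of 23 (-0.03). The MHC class II and presentation list turned to 3 higher and 6 lower of 13 (-0.13), and the immediate early and stress list to 0 higher and 2 lower of 19 (-0.01). B cell identity genes then had 3 of 12 higher and 2 lower (0.09), BCR signalling genes 4 of 18 and 4 (0.10), and TNF-family and NF-kB genes 3 of 23 and 3 (-0.05). Of the 8 genes of the list around TYROBP, 4 were then higher and 1 lower, with a median of 0.29 in place of 0.98. TYROBP was at 2.08 ± 0.43, ITGAM was at 1.38 ± 0.48, FCGR2A at 0.50 ± 0.27 and HCST at 0.28 ± 0.20, each in 6 of 6 animals, and ITGB2 at 0.09 ± 0.27, higher in 4. FOXP1 (0.28 ± 0.20) and CD200R1 (0.79 ± 0.62) were then higher in 5 of 6 animals. Several single genes had smaller differences against this mean, still higher in 6 of 6 animals. They were TLR9 (0.67 ± 0.16), CXCR5 (0.44 ± 0.26), GPR183 (0.56 ± 0.19), CD1C (0.64 ± 0.27), MS4A1 (0.46 ± 0.12) and SIGLEC10 (0.69 ± 0.11). CD70 was at 1.56 ± 0.31, and BCL2L11, at 1.07 ± 0.22, was not smaller. The memory list kept 11 higher of 18 (1 lower), the atypical list 14 of 27 (2 lower), the inhibitory receptors 9 of 22 (1 lower) and the naive list 9 lower of 18 (0 higher), when 7.99% of all genes were higher and 6.98% lower.

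M-MBC 2 differed from M-MBC 1, the other subtype of the same name, in 139 genes that were at least 1 higher in every animal (1.48% of 9410) and 143 that were at least 1 lower (1.52%). The largest difference was that of ITGAM, the alpha chain of the complement receptor integrin CD11b, at 4.05 ± 0.39. ITGAM had few counts in M-MBC 1, and each animal's own difference, with the small count added, was below the value of the fit. ITGAM stood at 9.51 CPM in male 1, 14.3 in male 2, 22.7 in female 1, 15.4 in female 2, 15.9 in female 3 and 31.8 in female 4, and at 1.87 ± 2.47 (SD, n = 6) in M-MBC 1, whose highest animal held 6.88. The 2 groups did not overlap, although C-MBC 1 (27.0 CPM ± 16.9) and CD11c+ MBC 2 (50.8 ± 36.4) held more ITGAM than M-MBC 2 in 4 and 6 of 6 animals. TFEC (2.86 ± 0.57), CCDC187 (2.56 ± 0.73), SULF2 (2.45 ± 0.64), ATRNL1 (2.45 ± 0.53) and CD70 (2.40 ± 0.75) were the other genes named at the high end. CD70 stood between 22.2 and 136 CPM in M-MBC 2.

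At the low end against M-MBC 1 were RFLNB (-3.87 ± 0.83), PPFIA2 (-3.71 ± 1.24), the killer-cell immunoglobulin-like receptor gene KIR3DL0 (-3.02 ± 0.67), AEBP1 (-2.94 ± 0.61), the phospholipid transporter ABCB4 (-2.55 ± 1.41) and FCER2 (-2.49 ± 0.27). KIR genes are close relatives of each other, so reads of KIR3DL0 may be shared with its paralogs. AEBP1 stood at 20.9, 6.49, 15.5, 15.4, 6.35 and 31.8 CPM in male 1 to female 4, against 107 ± 42.2 (SD, n = 6) in M-MBC 1. Leaving out female 4 gave 244 lower genes in this comparison.

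By list, 8.48% of all genes were higher and 8.3% lower in every animal against M-MBC 1, with a median of -0.02. Of the 18 memory genes 13 were higher and 1 lower (median 1.09), with CD86 at 1.67 ± 0.37, TNFRSF13B at 1.72 ± 0.59, S100A4 at 1.76 ± 0.65 and S100A6 at 1.59 ± 0.65. Of the 18 naive genes 11 were lower and 0 higher (-1.08). TCL1A differed by -4.50 ± 1.503, with 5 animals lower and 1 at 0 in both subtypes. The atypical list had 11 of 27 higher and 3 lower (0.22), and the inhibitory list 7 of 22 higher and 4 lower (0.22). Here the inhibitory receptors parted. SIGLEC10 (1.14 ± 0.23), FCRL2 (1.32 ± 0.60) and the phosphatase gene PTPN22 (0.81 ± 0.38) were higher in every animal, and CD72 (-2.46 ± 0.60), LILRB1 (-1.44 ± 0.73) and CD22 (-0.88 ± 0.51) were lower in every animal. CD72 stood between 19.0 and 37.6 CPM in M-MBC 2 and between 82.6 and 202 in M-MBC 1. Of the 8 genes around TYROBP only TYROBP itself (1.22 ± 0.44) and ITGAM were higher in every animal and LILRA2 (-1.93 ± 0.79) was lower, while HCST (-0.06 ± 0.33) and FCGR2A (-0.10 ± 0.10) were higher in 4 and 1 of 6 animals. Ribosomal protein genes were lower, 14 of 17 (-0.21), and 4 of 23 oxidative phosphorylation genes were higher (0.13).

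Against CD11c+ MBC 1, 142 genes (1.51%) were at least 1 higher in every animal and 186 (1.98%) at least 1 lower. FCRL2, an Fc-receptor-like protein, led at 4.14 ± 0.91, with 49.4 CPM in male 1, 42.2 in male 2, 126 in female 1, 23.9 in female 2, 52.4 in female 3 and 26.5 in female 4, against 3.49 ± 1.69 (SD, n = 6) in CD11c+ MBC 1. MZB1, an endoplasmic reticulum protein of marginal zone and antibody-secreting cells, followed at 3.53 ± 0.47, then TNS3 (2.79 ± 0.73), CALY (2.74 ± 0.81), the immunoglobulin joining chain JCHAIN (2.72 ± 1.12) and RPL22L1 (2.70 ± 0.41). MZB1 stood between 35.9 and 156 CPM in M-MBC 2 and at 7.23 ± 4.00 (SD, n = 6) in CD11c+ MBC 1. The lower genes were KCNIP3, a calcium-binding repressor (-4.88 ± 0.62), KIR3DL0 (-4.63 ± 0.74), AFAP1L2 (-3.70 ± 1.299), the protease inhibitor CST7 (-3.32 ± 0.92), the ion exchanger SLC24A4 (-3.06 ± 0.67) and EYA2 (-2.93 ± 0.85). KCNIP3 stood at 86.6 CPM ± 40.3 (SD, n = 6) in CD11c+ MBC 1 and between 1.11 and 7.93 in M-MBC 2. Of the 27 atypical genes 5 were higher and 11 lower (median -0.18), where 6.77% of all genes were higher and 9.31% lower in every animal. ITGAX was 284 CPM ± 93.3 (SD, n = 6) in M-MBC 2 against 784 ± 234 in CD11c+ MBC 1, lower in 6 of 6 animals. Without female 4 the lower genes numbered 315.

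Against M-MZL BC, 206 genes (2.19%) were at least 1 higher in every animal and 175 (1.86%) at least 1 lower. RTN4R differed by 5.14 ± 0.58: it stood at 19.0 CPM in male 1, 10.4 in male 2, 8.88 in female 1, 41.0 in female 2, 11.1 in female 3 and 10.6 in female 4, and at 0.401 ± 0.646 (SD, n = 6) in M-MZL BC. The secreted protein gene METRNL (3.67 ± 0.48), EYA2 (3.59 ± 0.51), C15orf48 (3.43 ± 1.28), KIR3DL0 (3.40 ± 0.75) and the transcription factor TOX2 (3.36 ± 1.05) came next. METRNL stood between 118 and 337 CPM in M-MBC 2 and between 7.93 and 29.0 in M-MZL BC, and TOX2 at 91.7 ± 40.9 (SD, n = 6) against 7.05 ± 6.40. Lower in M-MBC 2 were ST6GALNAC3 (-4.28 ± 0.49), CR2 (-3.66 ± 1.40), VPREB3, part of the surrogate light chain gene group (-3.66 ± 1.02), RFLNB (-3.38 ± 0.43), PTPRN2 (-3.34 ± 0.66) and TPD52L1 (-3.33 ± 0.95). VPREB3 stood between 37.0 and 139 CPM in M-MZL BC and between 0 and 26.5 in M-MBC 2. The atypical list had 13 of 27 higher and 2 lower (median 0.71) and the naive list 0 of 18 higher and 7 lower (-1.08), with 9.43% of all genes higher and 10.4% lower in every animal. FCRL2 was lower than in M-MZL BC in every animal, so on this gene M-MBC 2 lay between CD11c+ MBC 1 and M-MZL BC (151 CPM ± 46.1, SD, n = 6).

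Among 7196 genes with a mean log2 CPM of at least 4, M-MBC 2 had the highest mean log2 CPM of the 11 subtypes for 239 (3.32%). The largest gaps to the second subtype were 0.59 for TYROBP, 0.55 for JAG2, a ligand of Notch receptors, 0.54 for FBLN2, 0.44 for ISG15, 0.43 for FOSL2, 0.42 for SLC16A6, 0.39 for KLRF2 and 0.36 for each of LPGAT1, AP1S2 and MX1. TYROBP, LPGAT1 and AP1S2 were above the second subtype in 6 of 6 animals, JAG2, FBLN2, FOSL2 and SLC16A6 in 5, and ISG15, KLRF2 and MX1 in 4. JAG2 stood at 45.6, 40.2, 48.3, 76.9, 63.5 and 15.9 CPM in male 1 to female 4. ISG15 and MX1, which are induced by type I interferon, were uneven between animals. ISG15 was at 508 CPM in female 2 and between 15.2 and 73.0 in the other animals, and MX1 at 461 in female 2 and between 37.1 and 94.7 in the others. IFIT3 was at 581 CPM in female 2 and between 7.21 and 122 elsewhere. The interferon list against the other subtypes of the same animals had 5 of 18 genes higher in every animal and 0 lower (median 0.70), and against M-MBC 1 6 of 18 and 0 (0.40). Of all genes, 14.8% were higher and 4.04% lower in the first comparison, and 8.48% and 8.3% in the second.

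Markers of other blood cells were present in M-MBC 2, and some of them were higher than in other subtypes. Monocytes express TYROBP, and the 20 genes of the monocyte list, which does not hold TYROBP, summed to 224 CPM ± 30.003 (SD, n = 6; 183 to 267). LYZ was the only one of them above 50 CPM (88.1). The defining monocyte genes CD14 (9 UMIs in all), S100A8 (8), S100A9 (3) and FCN1 (1) were near 0 among 5470172 UMIs, and S100A12 and CEBPA were at 0. The same sum was 188 CPM ± 44.5 in M-MBC 1, 217 ± 36.8 in CD11c+ MBC 1, 152 ± 29.4 in M-MZL BC and 89.2 ± 25.3 in Naive B cells 1. Of 9 monocyte genes that passed the filter, 3 were higher in every animal than the mean over the other subtypes and 1 was lower (median 0.25): LYZ, lysozyme, by 1.82 ± 0.51, MS4A7 by 1.52 ± 0.42 and CD68, a lysosomal protein gene, by 1.13 ± 0.28, with S100A9 at -1.09 ± 0.25. Without Naive B cells 2 and 3 and antibody-secreting cells in the mean, LYZ (1.12 ± 0.31), MS4A7 (0.60 ± 0.39) and CD68 (0.67 ± 0.31) were higher in 6 of 6 animals. Against M-MBC 1, where TYROBP and ITGAM were higher, 1 of the 9 was higher in every animal (CD68, 1.14 ± 0.39) and 0 lower. The part of such RNA in the differences of TYROBP, ITGAM and FGR was not tested. The T cell list summed to 234 CPM ± 219 (91.0 to 674), led by CD3D (256 UMIs) and CD3G (157). The NK cell list summed to 78.4 ± 59.7 (21.5 to 173). CST7 (82 UMIs), GNLY (71), GZMB (58) and KLRF1 (56) led it, with XCL1 at 0 and NCAM1 and NCR1 at 1 UMI each. The platelet and red cell list summed to 154 ± 103 (22.9 to 293), led by PPBP (289 UMIs), PF4 (178) and NRGN (163), with GP1BB and HBA1 at 0. In every animal, 1 of 17 T cell genes, 1 of 9 NK cell genes and 0 of 5 platelet and red cell genes were higher than the mean over the other subtypes, and 0 were lower. The dendritic cell list summed to 835 ± 189 (598 to 1122), of which CD1C, TCF4 and IRF7 (459, 335 and 61.8 CPM over all 6 animals) are also expressed by B cells, and XCR1, FCER1A, CLEC4C and SIGLEC1 were at 0. It summed to 583 ± 171 in M-MBC 1 and 866 ± 181 in M-MZL BC. Of 6 dendritic cell genes that passed the filter, 3 were higher in every animal than the mean over the other subtypes and 0 lower (CD1C, IRF7 and TCF4), and against M-MBC 1 these and CADM1 were higher. Beside these marker counts, 14.8% of all genes were higher and 4.04% lower in every animal against that mean. Against M-MBC 1 the shares were 8.48% and 8.3%. B cell identity genes summed to 27968 ± 3899. Fewer RNA molecules per cell and fewer cells with the RNA cannot be told apart in these sums.

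The receptors of M-MBC 2 were mostly IgM and carried mutations. Of 778 cells with 1 heavy chain and a constant region read, 654 were IgM, 50 IgD, 70 IgG and 4 IgA. IgD made up 10.0% ± 12.4 (SD, n = 6) of the unswitched cells, against 33.6% ± 18.9 in M-MBC 1 and 30.5% ± 18.2 in Naive B cells 1. The low share was not particular to M-MBC 2. It was 11.1% ± 10.95 in M-MZL BC, 11.5% ± 12.5 (n = 5) in C-MBC 1 and 12.4% ± 13.5 in Activated B cells. IGHM transcripts, which were left out of the gene comparisons, stood between 674 and 1605 CPM in the animals. Mutation was measured as the number of differences per 100 bases of the IGHV segment between a cell's contig and the nearest sequence of the same IGHV gene that at least 3 unswitched B cells of the same animal carried with different CDR3s. The most used gene, IGHV3-116, shows the range in male 2, where 21 M-MBC 2 cells were compared with a sequence carried by 15 cells. The stretch shown is positions 76 to 177 of the contig's variable part (102 bases, 5' to 3'), from CDR1 into CDR2, and capitals mark the bases that differ from the reference.

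reference, 15 cells: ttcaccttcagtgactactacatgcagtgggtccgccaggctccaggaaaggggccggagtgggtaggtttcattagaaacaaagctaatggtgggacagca
M-MBC 2 cell of median divergence: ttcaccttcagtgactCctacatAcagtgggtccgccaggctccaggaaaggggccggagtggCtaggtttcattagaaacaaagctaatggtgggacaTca
M-MBC 2 cell of highest divergence: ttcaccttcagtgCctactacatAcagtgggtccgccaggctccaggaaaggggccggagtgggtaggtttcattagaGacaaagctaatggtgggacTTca

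The first of these IgM cells had 9 differences over the whole segment (3.125 per 100 bases), 4 of them in the stretch, and the second had 20 (6.94), 5 of them in the stretch. The least divergent of the 21 cells had 0. Over all 713 M-MBC 2 cells with a reference the median was 1.75 and the highest 14.4, with 18.4% of cells at 0 and 11.6% above 5. The 63 switched cells (median 1.74) and the 647 unswitched cells (1.75) had like medians, and their difference was not tested.

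Mean divergence in M-MBC 2 lay close to that of M-MZL BC and above that of M-MBC 1 in every animal compared, and its CDR3s were shorter than those of M-MBC 1 in every animal, although no receptor comparison passed adjustment. Receptor measures were compared over animals by exact two-sided sign-flip permutation tests, in which 6 animals can give no p below 0.03125 and 5 animals none below 0.0625. Of 25 such comparisons 8 had an unadjusted p under 0.05 and 0 passed after Benjamini-Hochberg adjustment, the smallest adjusted p being 0.0977. The mean divergence was 1.85 in male 1, 2.59 in male 2, 2.40 in female 1, 2.72 in female 2 and 2.18 in female 3, a mean of 2.35 ± 0.345 (SD, n = 5). Female 4 had 9 cells with a reference, with a mean of 4.55, and was left out for having fewer than 10. Divergence was higher than in M-MBC 1 (0.588 ± 0.165, n = 5) in 5 of 5 animals, higher than in CD11c+ MBC 1 (1.17 ± 0.453) and Naive B cells 1 (0.0470 ± 0.0282) in 5 of 5, and lower than in C-MBC 1 (4.92 ± 0.795) in 5 of 5 (exact permutation p = 0.0625 each, the smallest possible; adjusted p = 0.112). From M-MZL BC (2.35 ± 0.231) it differed by 0.00107 ± 0.240 (SD, n = 5), higher in 2 and lower in 3 animals (exact permutation p = 1).

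Class-switched heavy chains made up 8.25% of the M-MBC 2 cells of male 1, 5.49% of male 2, 9.54% of female 1, 9.84% of female 2, 16.1% of female 3 and 25.0% of female 4, a mean of 12.4% ± 7.11 (SD, n = 6). This lay above M-MZL BC (3.37% ± 1.67) and Naive B cells 1 (0.455% ± 0.557), and below CD11c+ MBC 1 (29.5% ± 19.9) and C-MBC 1 (78.5% ± 11.5), in 6 of 6 animals each (exact permutation p = 0.03125, adjusted p = 0.0977). M-MBC 1, at 9.08% ± 4.65, was lower in 5 of 6 animals (exact permutation p = 0.125, adjusted p = 0.184).

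Heavy CDR3s, the loop at the V-D-J junction, averaged 14.9, 15.1, 15.5, 15.0, 15.4 and 14.1 amino acids in male 1 to female 4, a mean of 15.0 ± 0.490 (SD, n = 6). The difference was -1.10 ± 0.540 from M-MBC 1, -1.59 ± 0.344 from Naive B cells 1 and -1.22 ± 0.754 from C-MBC 1, shorter in 6 of 6 animals each (exact permutation p = 0.03125, adjusted p = 0.0977). From M-MZL BC the difference was 0.102 ± 0.355 (SD, n = 6), with 3 animals on each side (exact permutation p = 0.531). Kappa light chains were found in 45.7% ± 3.39 (SD, n = 6) of M-MBC 2 cells, with a range of 42.3 to 51.7, and in 56.6% ± 6.26 of M-MZL BC, which was higher in 6 of 6 animals (exact permutation p = 0.03125, adjusted p = 0.0977). Against M-MBC 1 (49.7% ± 13.6) the kappa share was lower in 4 of 6 animals (exact permutation p = 0.531).

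**Figure D4:**
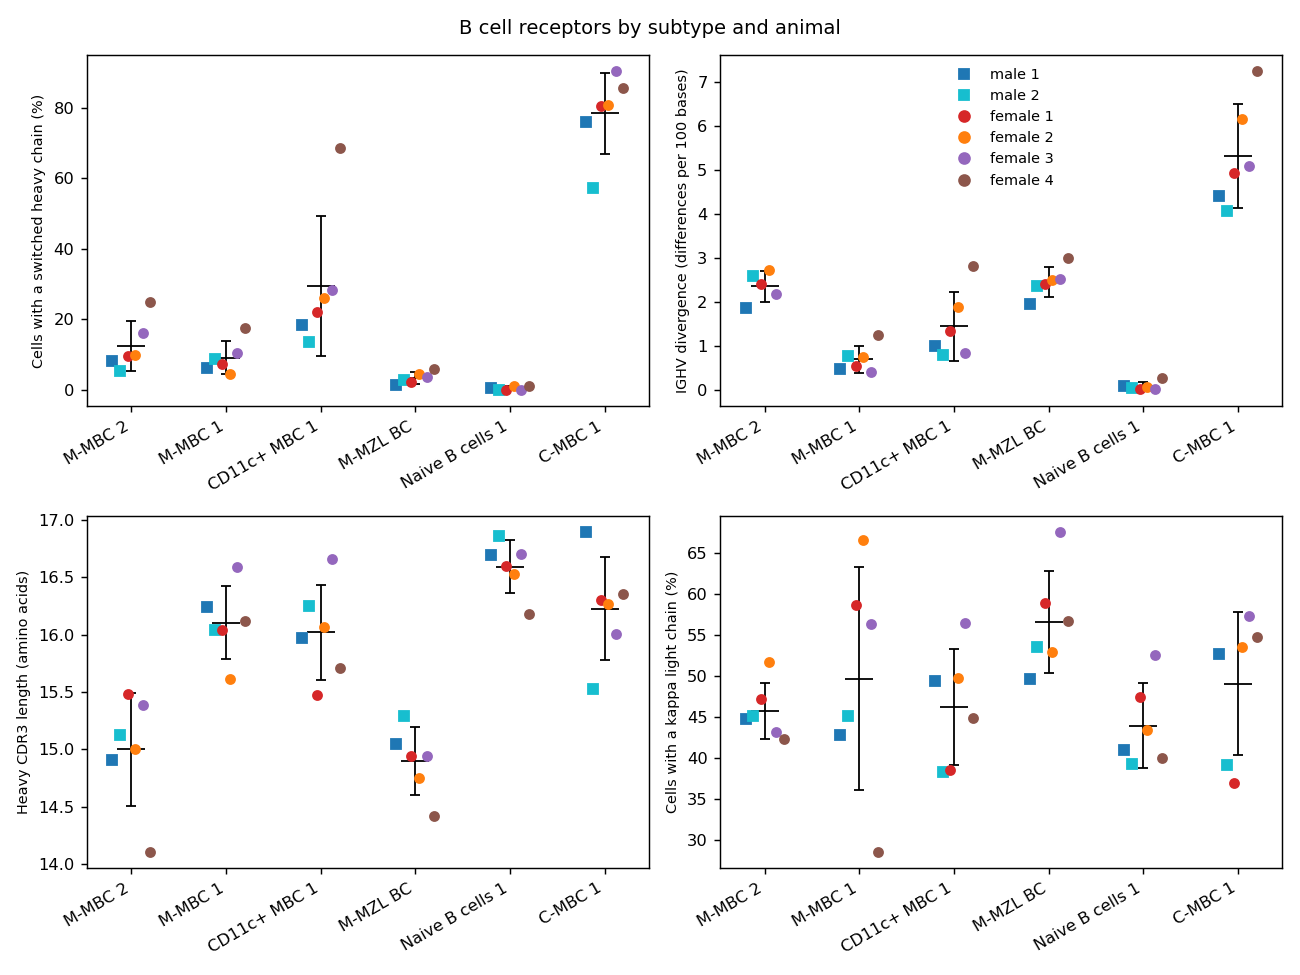
Share of switched cells (%), mean IGHV divergence (differences per 100 bases), mean heavy CDR3 length (amino acids) and share of kappa cells (%) per animal (points) in M-MBC 2 and 5 other subtypes, with mean and SD of the plotted animals; female 4 has no divergence point in M-MBC 2. Divergence and CDR3 length of M-MBC 2 overlap with M-MZL BC and lie apart from Naive B cells 1.

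Gene use and clones were described for the 782 cells with 1 heavy chain. IGHV4 genes made up 49.2% ± 12.8 (SD, n = 6), IGHV3 38.0% ± 9.70, IGHV2 6.60% ± 6.30 and IGHV1 3.56% ± 2.46. Of 12 exact sign-flip permutation tests 2 had an unadjusted p under 0.05 and 0 passed after adjustment (smallest adjusted p = 0.188). IGHV1 was lower than in Naive B cells 1 (9.42% ± 2.54) and IGHV3 lower than in M-MZL BC (46.6% ± 4.81), each in 6 of 6 animals. IGHV3-116 was the most used gene, in 52 cells of all 6 animals (6.60% ± 3.67 against a mean of 1.60% in Naive B cells 1), followed by IGHV4-80 (47 cells, 5 animals) and IGHV3-103 (44 cells), and IGHJ4 was joined in 486 cells (63.4% ± 6.65 against 51.7% in Naive B cells 1).

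A clone was counted where at least 2 B cells of an animal had the same IGHV and IGHJ genes and an identical CDR3 base sequence. Light chains were not part of this rule. In male 2, the IGHV4-80 clone with CD11c+ MBC 1 and M-MBC 1 cells and the IGHV4-143 clone with an M-MZL BC cell each had 2 light-chain V genes. M-MBC 2 cells belonged to 34 clones, which held 46 of the 782 cells, and 4.54% ± 3.67 (SD, n = 6) of cells per animal were in a clone, from 1.03% in male 1 to 8.82% in male 2. Of the clones, 9 held M-MBC 2 cells alone and 25 reached into other subtypes: 7 into C-MBC 1, 6 into M-MBC 1, 5 into CD11c+ MBC 1, 4 into CD11c+ MBC 2 and 2 each into Activated B cells and M-MZL BC. The subtypes differ in size. The shared clones held 9 of 879 C-MBC 1 cells with 1 heavy chain, 6 of 1860 in M-MBC 1 and 5 of 1848 in CD11c+ MBC 1. They held 4 of 1028 in CD11c+ MBC 2, 2 of 683 in Activated B cells and 2 of 1387 in M-MZL BC. No clone reached into Naive B cells 1, of which 1462 cells had 1 heavy chain. More than 1 class was found in 4 clones: IgG and IgM in an IGHV1-200 clone of female 3, and IgM and IgD, both unswitched, in the others. The largest clone is shown by its CDR3 bases because it joins IgM cells annotated to separate subtypes:

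male 2, IGHV4-143 with IGHJ5-1, 5 IgM cells: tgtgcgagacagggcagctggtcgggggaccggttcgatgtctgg

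It held 2 M-MBC 2 and 3 C-MBC 1 cells, coded for 15 amino acids and had the same divergence of 3.47 in every cell with a value. Across subtypes, the share of cells in a clone was higher in M-MBC 2 than in M-MZL BC (2.10% ± 1.87) in 5 of 6 animals (exact permutation p = 0.0625, adjusted p = 0.112). It was also above Naive B cells 1 (0.897% ± 1.03) in 5 of 6 animals (exact permutation p = 0.09375, adjusted p = 0.156). It was higher in 4 of 6 animals than in CD11c+ MBC 1 (2.11% ± 1.23; exact permutation p = 0.125, adjusted p = 0.184), and in 3 of 6 than in M-MBC 1 (3.22% ± 4.29; exact permutation p = 0.5, adjusted p = 0.577) and C-MBC 1 (3.21% ± 2.58; exact permutation p = 0.375, adjusted p = 0.521).

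Within M-MBC 2, unswitched cells above an animal's median divergence were compared with those at or below it, in the 5 animals with at least 10 cells on each side (22 to 117 cells). More mutated cells had more RNA of 8 genes and less of 14, by edgeR's quasi-likelihood test with Benjamini-Hochberg adjustment and the animals as a block: 22 of 4018 genes (0.548%) had an adjusted p under 0.05. SULF2 was higher by 1.27 ± 0.31 (log2, SE), ATRNL1 by 0.88 ± 0.14, the fucosyltransferase FUT8 by 0.86 ± 0.19, SPAG16 by 0.79 ± 0.15, the integrin chain ITGB1 by 0.55 ± 0.13 and the transcription factor TCF4 by 0.53 ± 0.12. TCF4 went from 283 to 303 CPM in male 1, 317 to 418 in male 2, 225 to 434 in female 1, 494 to 665 in female 2 and 209 to 288 in female 3, a rise in 5 of 5 animals. The other 5 of these genes rose in 4 of 5 animals. SULF2 fell from 134 to 89.7 CPM in male 1, whose less mutated cells were the highest of all, and rose in the others, for instance from 9.26 to 63.0 in female 1.

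Lower in the more mutated cells were the hyaluronidase-like surface protein gene CEMIP2 (-1.03 ± 0.18), TNFRSF18, which encodes GITR (-1.02 ± 0.24), the inhibitory receptor LILRB1 (-0.94 ± 0.24), the transcription factor ETS2 (-0.93 ± 0.20), LDB2 (-0.88 ± 0.20) and the ubiquitin ligase MARCHF3 (-0.77 ± 0.17). CEMIP2 went from 84.4 to 61.6 CPM in male 1, 128 to 46.9 in male 2, 99.3 to 46.2 in female 1, 119 to 55.9 in female 2 and 191 to 114 in female 3, a fall in 5 of 5 animals (edgeR, adjusted p = 0.00267). LILRB1 fell in 4 of 5 animals, the largest fall being from 209 to 56.0 CPM in male 1. The call depends on the tool and on single animals: DESeq2 and the fit without the animals as a block called 0 genes, with 82 and 23 at an unadjusted p under 0.05. Leaving out female 1 left 1 gene, male 2 5 genes and female 3 8 genes.

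**Figure D5:**
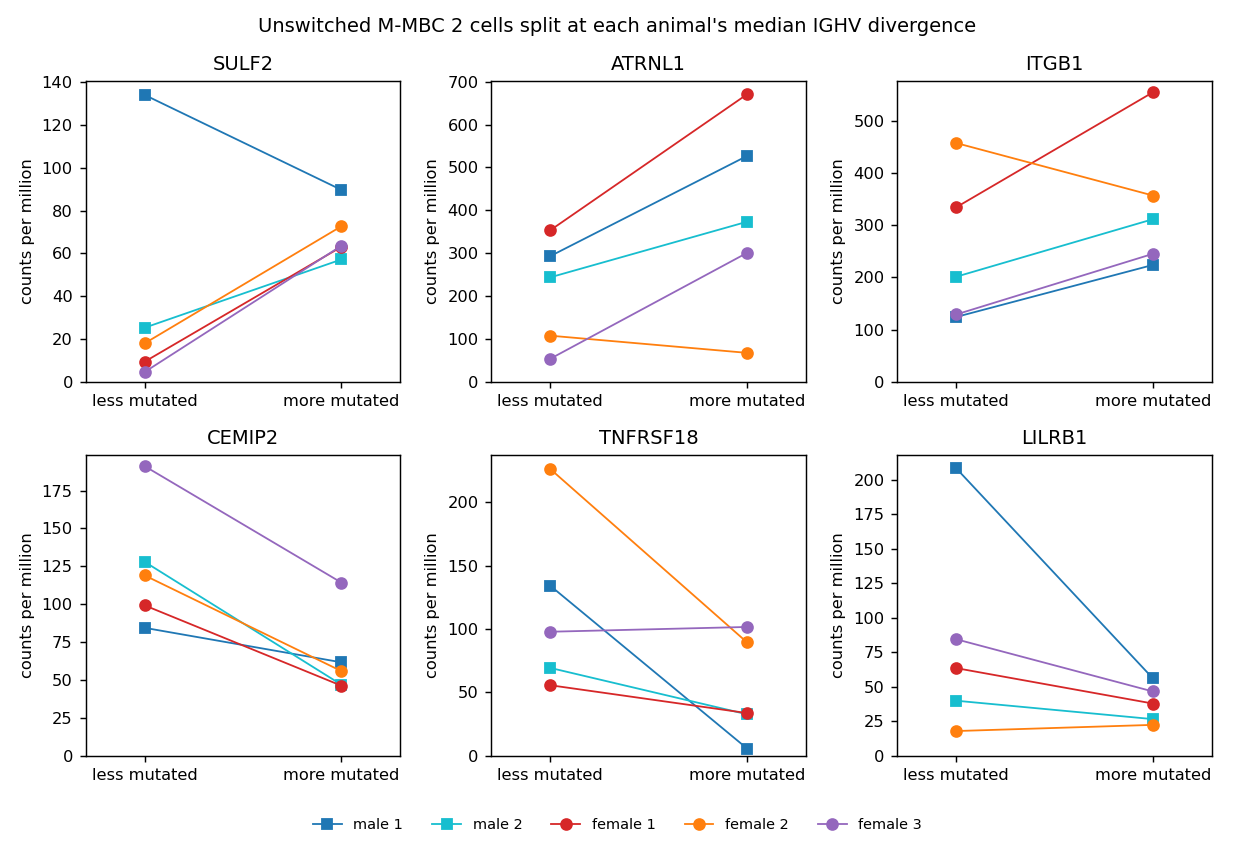
CPM (linear axis) of 6 genes in the less and the more mutated unswitched M-MBC 2 cells, joined per animal (squares males, circles females; female 4 had too few cells). CEMIP2 falls in all 5 animals, and SULF2 rises in 4 and falls in male 1.

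Switched M-MBC 2 cells could be compared with unswitched ones in 3 animals, with 25, 15 and 13 switched cells in female 1, female 3 and male 2. These switched cells summed to 145732, 98882 and 46623 counts, so their lower CPM values rest on a few molecules, above all in male 2. Of 5023 genes, 13 (0.259%) had an adjusted p under 0.05 by edgeR's quasi-likelihood test, 6 higher and 7 lower in the switched cells. TOX, a nuclear factor known from T cell differentiation, rose from 24.4 to 187 CPM in female 1, from 34.9 to 312 in female 3 and from 31.5 to 85.0 in male 2, a log2 change of 2.74 ± 0.34 (SE; edgeR, adjusted p = 2.45e-07). The ranges did not overlap. SPAG16 (1.61 ± 0.21), PLBD1 (1.36 ± 0.33), PAG1, an adaptor of the SRC-family kinase regulator CSK (1.19 ± 0.23), LDB2 (1.11 ± 0.25) and the transcription factor MEF2C (0.83 ± 0.13) also rose in 3 of 3 animals. ATRNL1 fell from 500.1 to 93.4 CPM in female 1, from 184 to 104 in female 3 and from 317 to 85.0 in male 2 (-1.88 ± 0.27). DLGAP1 (-1.46 ± 0.17), FCRLA (-1.20 ± 0.22), PITPNC1 (-1.15 ± 0.27) and ITGB1 (-0.9986 ± 0.24) fell in 3 of 3 animals, and TTN (-2.63 ± 0.54) was lower in 2 of 3. DESeq2 called 5 genes and the fit without the animals as a block 1, and leaving out female 1 left 4.

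Kappa and lambda M-MBC 2 cells did not differ in any of 4134 genes at an adjusted p under 0.05 by edgeR's quasi-likelihood test (0% called), where 165 genes had an unadjusted p under 0.05. DESeq2 called 0 genes, with 46 at an unadjusted p under 0.05, and leaving out male 2 gave 4 genes and female 3 1.

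Males and females differed in 17 of 7174 genes within M-MBC 2 (0.237%; edgeR's quasi-likelihood test, adjusted p under 0.05), 15 higher in males (0.209%) and 2 lower (0.0279%). The Y-linked genes RPS4Y1 (1333 CPM in the mean of the males), DDX3Y (331), RPS4Y2 (179), UTY (171), CYorf15A (31.5), USP9Y (60.9) and EIF1AY (55.1) were among the higher genes, and the first 5 were at 0 in every female. USP9Y and EIF1AY averaged 0.133 and 0.550 CPM in the females. The other genes higher in males included CDK14 (165 CPM ± 14.2, n = 2, against 11.7 ± 11.8, n = 4), a cyclin-dependent kinase, ANO10 (193 ± 67.5 against 39.6 ± 10.8) and the zinc finger gene ZC3H10 (3636 ± 1018 against 989.7 ± 204). The lower genes were SERP1, a stress-associated endoplasmic reticulum protein gene (23.2 ± 9.46 against 228 ± 21.0), and the mitochondrial ATP6 (637 ± 37.4 against 2348 ± 254). Sex and batch cannot be told apart for any autosomal gene here. DESeq2 called 46 genes, and the count was 116 without female 2, 10 without female 4, 9 without female 1, 7 without female 3 and 6 without male 1.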

How the data were processed

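The deposited table gives whole-number counts of UMIs per gene and cell for 13849 cells, and the authors deposited for each cell an annotation, a predicted label, a doublet call (Singlet for all) and the percent of mitochondrial and ribosomal counts; per the file headers the receptor tables hold contigs (28676) with UMI counts. Per the submitters' processing notes, Seurat 5.0.1, Cell Ranger 9.0.1 and R 4.3.1 were used. Neither a genome build nor an annotation is given in the sources used here.

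Counts of an animal's cells of a subtype were summed where at least 10 cells were present. Unnamed identifiers (5813, 14.9% of UMIs) and 23 named immunoglobulin genes (0.186%) were left out of library sizes and fits, leaving 16748 genes, of which 9410 passed edgeR's filter on low counts. edgeR 4.0.16 (limma 3.58.1, R 4.3.3) fitted all subtypes with animals as a block. The same animals give every subtype, which is where the pairing comes from, and replicates are separate animals. Differences between subtypes are descriptions, and the SD over animals replaces the planned standard error, which could not be had for genes at 0 in a group. A gene at 0 in both subtypes of an animal counts as no direction. Comparisons within M-MBC 2 used edgeR's quasi-likelihood test, with DESeq2 1.42.0 as an alternative, and receptor measures exact sign-flip tests (Python 3.11.15, numpy 2.4.6, pandas 2.3.3, scipy 1.17.1; figures matplotlib 3.10.9). Contigs were joined by barcode and animal.

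Named genes were, by rule, up to 10 per direction against the mean of the other subtypes and up to 6 against each of 3 subtypes, by size, with a mean log2 CPM of at least 4 and 1 sign in all animals, and up to 10 genes highest in M-MBC 2; from each list the 4 largest differences and the ITAM, inhibitory and atypical members; and up to 6 called genes per direction in tests within M-MBC 2. Genes of lists outside this rule, and S100A6, SYK and BTLA among them, were chosen after their values were seen. The members and the gene lists were chosen with earlier results of these data known. Some list members are counted but not reported here by name, nor plotted. In simulated data for the mutated comparison, 37.11% of genes changed by 1 (log2) and 96.88% of those changed by 2 were called, and for the switched comparison 6.061% and 60.61%.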

Additional observations from a re-analysis of the deposited data

Results flagged for a closer look

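Single animals stood far from the others in 3 of 42 groups of animals looked at, where chance flags about 1 in 20 groups. MX1, an interferon-induced gene, was at 8.86 (log2 CPM) in the M-MBC 2 cells of female 2, against a median of 6.01 over the 6 animals. PDE3B was low in female 2, at 2.86 against a median of 4.20. FNDC3B was at 1.09 in female 4, which held no count of it and the fewest cells, against a median of 4.19.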

How the results depend on the processing

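Among values that answer a comparison, 394 repeats under other settings were counted as unchanged, 25 as moved and 8 as changed in sign. For receptor measures and IGHV families, unchanged meant the same sign and the same side of an adjusted p of 0.05, whatever the size. With 1 animal left out none of these could pass, so every such repeat that kept its sign was bound to count as unchanged. Against the mean of the other subtypes, leaving out Naive B cells 2 and 3 and antibody-secreting cells gave 77 higher genes, and cells with exactly 1 heavy and 1 light chain, an alternative chosen after seeing the data, gave 92; without a filter on low counts 254 genes were lower. Leaving out 1 animal at a time gave 285 to 346 higher and 107 to 182 lower genes against that mean, 146 to 176 and 140 to 244 against M-MBC 1, 136 to 199 and 199 to 315 against CD11c+ MBC 1, and 222 to 277 and 202 to 230 against M-MZL BC. These counts need 1 sign in every animal, so fewer animals ask less. Within M-MBC 2, the mutated comparison gave 0 genes with DESeq2, 38 without a filter, 0 without the replicate block of animals and 1 to 22 with 1 animal left out. The switched comparison gave 5 with DESeq2, 1 without the replicate block and 4 to 17, kappa against lambda 4 without a filter and 0 to 4, and males against females 46 with DESeq2, 235 without a filter and 6 to 116. The causes were not tested. The divergence difference from M-MZL BC was -0.0836 with references from Naive B cells 1 alone and -0.0566 to 0.0861 with 1 animal left out. With 1 animal left out, the kappa share against CD11c+ MBC 1 differed by -2.34 to 2.03 percentage points, and IGHV2 use by -1.53 to 2.69 against M-MZL BC and -1.27 to 1.63 against Naive B cells 1. Among the single genes recomputed against the mean (the named genes, the 4 largest of each list and other list members named), CD22 was at -0.35 with sums of at least 20 cells and CD72 at 0.000763 without a filter, and COX6C (-0.0175), MCM3 (-0.24), RPL19 (-0.16), RPS14 (-0.13) and CD22 (-0.35) changed sign without Naive B cells 2 and 3 and antibody-secreting cells, CAMSAP1 (-0.0175), MCM3 (-0.20) and CD22 (-0.39) in cells with 1 heavy and 1 light chain, TOP2A without female 3 (-0.85 to 0.10 with 1 animal left out), and VPREB3 without female 3 or male 1 (-0.42 to 0.26). With 1 animal left out, CD22 ranged from -0.0467 to 0.57, CD72 from -0.0999 to 0.10 and TREML1 from -1.04 to 0.15, and HCST against M-MBC 1 from -0.10 to 0.0215. The 30 cells of female 4 and the 13 to 25 switched cells per animal limit what could be detected.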
